A study of Mus musculus with 4 samples.

Results

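The nuclei described here carried RNA of Slc17a6 and none of Slc17a7, in single-nucleus libraries of the mouse basolateral amygdala (BLA), a region that links sensory cues with threat and reward. Slc17a6 encodes VGLUT2 and Slc17a7 encodes VGLUT1, the transporters that load glutamate into synaptic vesicles. A nucleus entered the group when it had at least 1 UMI (unique molecular identifier, 1 counted RNA molecule) of Slc17a6 and 0 of Slc17a7. It also had at most 1 UMI of Gad1 and Gad2 together, which make GABA, at most 3 of Foxp2, which marks intercalated cells, and at most 1 of Mobp and Gja1 together, which mark oligodendrocytes and astrocytes. Before that, nuclei were kept with at least 500 genes, under 5% mitochondrial UMIs and 2000 to 25000 UMIs. The rule found 404 of 18645 kept nuclei, out of 27313 deposited barcodes, and these 404 are called Slc17a6 nuclei below. They were set against 6805 nuclei with at least 1 UMI of Slc17a7 and 0 of Slc17a6, called Slc17a7 nuclei, to which the rule sets no limit on the other genes. A further 527 nuclei met the other limits and held UMIs of both transporters.

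All tissue came from C57BL/6J mice of 2 genotypes, labelled WT and DISC1-N, with 2 libraries each. Every group, WT included, was collected 6 h after an injection of tamoxifen, and BLA tissue of both sides was pooled from 5 mice for each group. The labels give no age, do not describe the DISC1-N allele and do not say what tamoxifen drives. They do not say whether the replicates of a genotype came from separate mice, so the p-values below may measure technical spread only. Libraries held 37840301 to 48439711 UMIs, and 5 to 21 barcodes were shared by any pair of libraries, at most 0.344% of the smaller one. No Slc17a6 nucleus shared its barcode with a Slc17a6 nucleus of another library.

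VGLUT1 is the main vesicular glutamate transporter of cortical and cortex-like neurons, including the projection neurons of the BLA, while VGLUT2 prevails in the thalamus, hypothalamus and brainstem and in parts of the medial and cortical amygdala. The genes named with the group are Nts, which encodes the peptide neurotensin, Pappa2, a secreted protease that cleaves insulin-like growth factor binding proteins, and Nxph1, a secreted ligand of the alpha-neurexins. On mm10, Slc17a6 lies on chr7:51622006-51671119, Slc17a7 on chr7:45163949-45176142, Nts on chr10:102481756-102490486, Pappa2 on chr1:158711727-158980490 and Nxph1 on chr6:8948431-9249032. Reads of 3' libraries start near the end of a transcript, and the position of a UMI within a gene was not available here.

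Slc17a6 nuclei were 75 of 4114 kept nuclei in WT replicate 1, 143 of 5677 in WT replicate 2, 52 of 3174 in DISC1-N replicate 1 and 134 of 5680 in DISC1-N replicate 2. Their median depth was 6008 UMIs, against 8151 in Slc17a7 nuclei. Most rested on a single molecule: 281 (69.6%) had 1 Slc17a6 UMI, 79 (19.6%) had 2 and 44 (10.9%) had 3 or more. UMIs were summed over the nuclei of a library and scaled to 1000000 UMIs (CPM). Slc17a6 stood at 196 CPM in WT replicate 1, 248 in WT replicate 2, 215 in DISC1-N replicate 1 and 212 in DISC1-N replicate 2, a mean of 218 ± 21.8 (SD, n = 4 libraries). The nuclei were chosen by these Slc17a6 UMIs and by the UMIs of Slc17a7, Gad1, Gad2, Foxp2, Mobp and Gja1, so values of those genes are a description only.

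A lone Slc17a6 UMI can also be found in cells that should lack the gene. Among the 5070 nuclei that met every limit and had no Slc17a7 UMI, 7.97% held Slc17a6 (95% exact interval 7.24 to 8.75), and the share was between 7.80% and 8.20% in each library. The share was 5.53% (4.03 to 7.38) in nuclei with oligodendrocyte markers, 3.94% in astrocyte nuclei, 2.60% in oligodendrocyte precursor nuclei, 6.49% in microglia and 3.74% (3.08 to 4.50) in nuclei with at least 3 UMIs of Gad1 and Gad2. Median depths in the same order were 3517 UMIs for the 5070 nuclei, then 4518, 2926, 2753, 7882.5 and 5896.5. With at least 2 Slc17a6 UMIs required, the share was 2.43% (2.02 to 2.89) in the 5070 nuclei, 1.67% in oligodendrocytes, 0.394% in astrocytes and 0.693% in the GABA nuclei. After each nucleus was thinned to 2000 UMIs, the share was 3.75% against 0.627% to 1.31% in those 5 classes. By library, in the order WT replicate 1, WT replicate 2, DISC1-N replicate 1 and DISC1-N replicate 2, the share was 6.13%, 3.98%, 11.5% and 2.31% in oligodendrocytes, 7.10%, 2.01%, 8.06% and 1.71% in astrocytes, and 5.14%, 3.15%, 5.28% and 2.52% in GABA nuclei. Microglia, in the same order, were at 1.61%, 6.67%, 13.9% (5 of 36 nuclei) and 7.69%. In DISC1-N replicate 1 oligodendrocytes, astrocytes and microglia were thus above the 7.85% of the candidate nuclei. At 2 UMIs in that library, oligodendrocytes were at 4.05% against 2.87%. Over the pooled libraries the share in the 5070 nuclei lay above those of the 5 classes, though the interval of the 154 microglia (3.16 to 11.6) reached it. These classes are glia and GABA nuclei only. Among nuclei with Slc17a7 under the same limits, 159, 145, 99 and 124 also held Slc17a6, in the library order above. Another 1269, 1277, 1078 and 1400 did not, so Slc17a6 was no rarer beside Slc17a7. The nuclei with both transporters were deeper, at a median of 8336 UMIs. At 2 UMIs, the intervals of oligodendrocytes (0.894 to 2.84) and microglia (0.0164 to 3.56) reached the 2.43% of the 5070 nuclei. How many of the nuclei with 1 UMI hold background RNA was not tested. These intervals cover counting error only, and reads in 1 library are not independent samples of the tissue.

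The 3 other markers marked some of the group and not all of it. Pappa2 was detected in 104 of 404 Slc17a6 nuclei (25.7%, 95% exact interval 21.5 to 30.3), Nts in 57 (14.1%, 10.9 to 17.9) and Nxph1 in 214 (53.0%, 48.0 to 57.9). By library in the order WT replicate 1, WT replicate 2, DISC1-N replicate 1 and DISC1-N replicate 2, which holds throughout, the share with Pappa2 was 20.0%, 25.2%, 32.7% and 26.9%. The share with Nts was 20.0%, 11.2%, 21.2% and 11.2%, so both replicate 1 libraries were higher than both replicate 2 libraries. The share with Nxph1 was 45.3%, 56.6%, 59.6% and 50.7%. In Slc17a7 nuclei, which were deeper, Pappa2 was found in 1.95%, Nts in 2.23% and Nxph1 in 20.8%.

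Nuclei with both transporters lay between these values, with Pappa2 in 7.40%, Nts in 5.69% and Nxph1 in 29.6%. Nxph1 does not set Slc17a6 nuclei apart from other cells of the tissue, since 51.6% of GABA nuclei and 95.2% of precursor nuclei held it. Pappa2 was in 1.32% of GABA nuclei and 1.80% of oligodendrocytes, and Nts in 3.12% and 2.96%. At an equal 2000 UMIs per nucleus the shares in Slc17a6 nuclei were 17.8% for Pappa2, 8.91% for Nts and 43.1% for Nxph1, against 0.485%, 0.749% and 13.5% in Slc17a7 nuclei. In CPM, Nts was at 251, 80.9, 139 and 117 in the 4 libraries, Pappa2 at 186, 250, 299 and 266, and Nxph1 at 638, 918, 1093 and 1039. These 3 genes were named with the group, so no test is given for them against Slc17a7 nuclei.

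**Figure D1:**
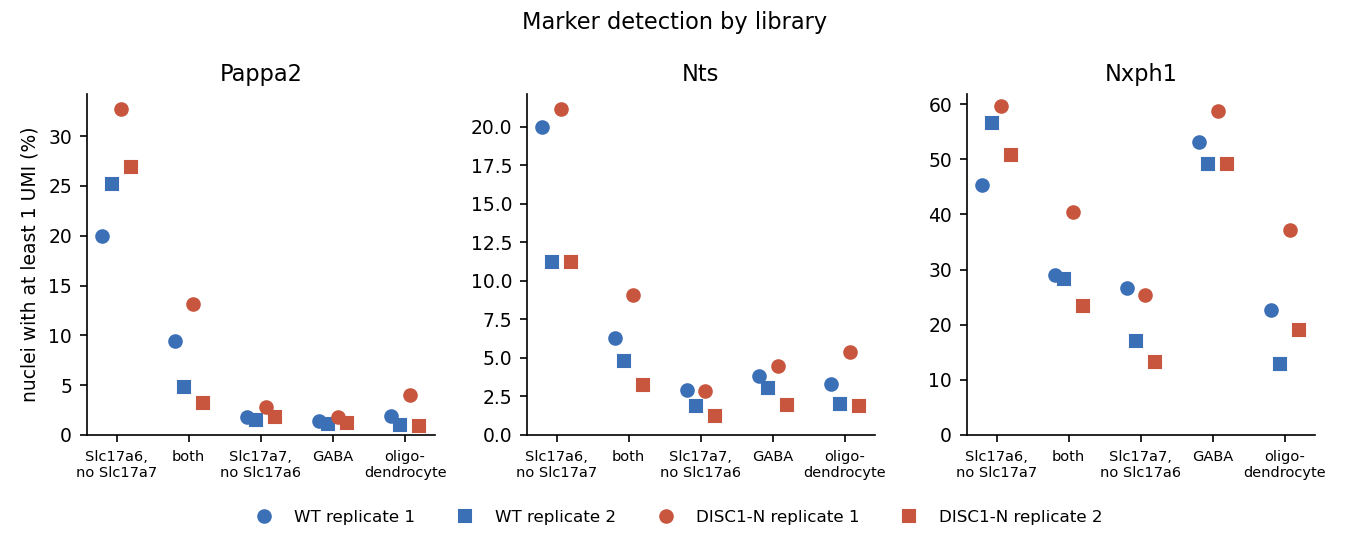
Share of nuclei with at least 1 UMI (y axis, percent, starting at 0) of Pappa2, Nts and Nxph1 in 5 kinds of nuclei (x axis), with 1 point for each library. Slc17a6 nuclei lie above the other kinds in every library for Pappa2 (20.0% to 32.7%) and Nts (11.2% to 21.2%), while Nxph1 is about as frequent in GABA nuclei.

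Marker detection went with the number of Slc17a6 UMIs. Pappa2 was in 18.5% of nuclei with 1 Slc17a6 UMI (14.1 to 23.5), 32.9% with 2 and 59.1% with 3 or more (43.2 to 73.7). Nxph1 was in 48.4%, 55.7% and 77.3%, and Meis2, a homeobox factor of developing and subcortical neurons, in 33.1%, 36.7% and 59.1%. Neurod6, a transcription factor of cortex-like excitatory neurons, went the other way, from 14.6% to 12.7% to 0 of 44 nuclei, which allows a share of up to 6.82%. This limit, here and for other shares of 0, is 3 counts of the total, and the exact 95% interval for it ends at 8.04%. Median depth also differed, at 5688, 6583 and 8194 UMIs, so the higher shares of Pappa2, Nxph1 and Meis2 came with deeper nuclei, and the lower share of Neurod6 did too.

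Nuclei just outside the limits of the rule also held the markers. The 246 nuclei that met every limit apart from 1 UMI of Slc17a7 had Pappa2 in 11.4%, Nts in 7.72% and Nxph1 in 36.2%. The 12 nuclei just above the limit on Gad1 and Gad2 had Pappa2 in 25.0% and Nxph1 in 66.7%, and the 49 Slc17a6 nuclei with 1 such UMI had them in 24.5% and 51.0%. The 13 nuclei just above the limit on Mobp and Gja1 had Pappa2 in 30.8%, and the 32 just inside it in 12.5%. The Foxp2 limit had 4 nuclei on either side.

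Pappa2 and Nts were found in the same nuclei. Of the 57 Slc17a6 nuclei with Nts, 48 also held Pappa2, and 9 did not. The other 56 nuclei with Pappa2 had no Nts, and 181 of the 404 (44.8%) had none of Pappa2, Nts and Nxph1. Among nuclei with at least 3 Pappa2 UMIs in the whole data set, 169 in all, 76.9% held Slc17a6, 25.4% held Slc17a7 and 82 were Slc17a6 nuclei by the rule. By library, 43.8%, 12.8%, 40.0% and 11.1% of them held Slc17a7, so both replicate 1 libraries were higher than both replicate 2 libraries. Strong Nts was less tied to this group: of 119 nuclei with at least 3 Nts UMIs, 52.9% held Slc17a6 and 33.6% had at least 2 UMIs of Gad1 and Gad2.

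The 104 nuclei with Pappa2 and the 300 without it differed in many other genes, given here as a description because both sets come from the same nuclei and differ in depth (median 8156.5 against 5314.5 UMIs). Nxph1 was in 98.1% of those with Pappa2 and 37.3% of those without. Meis1, a homeobox factor, was in 85.6% and 7.33%, Meis2 in 71.2% and 24.7%, the receptor tyrosine kinase Alk in 85.6% and 25.0%, and Kctd8, an auxiliary subunit of GABA-B receptors, in 62.5% and 18.3%. Genes that were more frequent without Pappa2 despite the lower depth were Adarb2, an ADAR-family RNA-binding protein (11.5% with Pappa2 and 54.7% without), Neurod6 (2.88% and 16.0%) and the zinc finger factor Tshz2 (35.6% and 71.0%).

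Nts split the Pappa2 nuclei further. The 48 with Nts had Tshz1, a paralog of Tshz2, in 75.0%, Tshz2 in 6.25% and Kctd8 in 93.8%. The 56 without Nts had Tshz2 in 60.7%, Kctd8 in 35.7% and Tac1, which encodes substance P, in 23.2%, against 4.17% of those with Nts.

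Clustering of the 404 nuclei alone, made without the genes of the rule and without Nts, Pappa2 and Nxph1, gave 8 clusters, and each held nuclei of all 4 libraries. Clusters 4, 5 and 6 held 108 nuclei (26.7%), and 100 of the 104 nuclei with Pappa2 and 49 of the 57 with Nts fell in them. The cluster numbers follow size, and the genes that lead each cluster defined it, so they are given without a test.

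Cluster 4 (41 nuclei) was led by Chrm3, a muscarinic acetylcholine receptor, Hs3st4, Vwc2l and Reln, and held Meis2 in 100% and Tshz2 in 87.8% of nuclei. Pappa2 was in 82.9% and Nts in 0 of 41, which allows up to 7.32%. Cluster 5 (35 nuclei) was led by Hmcn1, an extracellular matrix protein, Esrrg, an orphan nuclear receptor, and Cdh23, a cadherin of hair-cell tip links; Pappa2 was in 100%, Nts in 71.4% and Tshz1 in 74.3%. Cluster 6 (32 nuclei) was led by Sox6, Kctd8, Stk32b, Elfn1 and Prlr, the prolactin receptor, with Pappa2 in 96.9%, Nts in 75.0% and Tshz1 in 62.5%. Nxph1 was in every nucleus of all 3 clusters. Between 34.4% and 62.9% of these nuclei had at least 2 Slc17a6 UMIs, against 14.3% to 29.9% in the other 5 clusters. Median depth was 8709, 8761 and 6870 UMIs in clusters 4, 5 and 6, against 3703 to 7133 in the others. In CPM, Slc17a6 stood at 233, 239 and 262 in clusters 4, 5 and 6. It was higher in clusters 1 (286) and 8 (310) and lower in clusters 2 (152), 3 (170) and 7 (188).

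The 3 Pappa2 clusters were not alike in other genes. In summed CPM, Nts stood at 0 in cluster 4, 313 in cluster 5 and 1125 in cluster 6. Pappa2 stood at 376, 807 and 1223, and Kctd8 at 8.54, 878 and 1694. Meis2 ran the other way, at 1239, 230 and 369, and Meis1 was highest in cluster 4 as well, at 948, 301 and 511. Hmcn1 was highest in cluster 5, at 19.9, 721 and 320, as was Unc13c, which primes synaptic vesicles for release, at 288, 1255 and 227. Prlr was at 22.8, 95.1 and 347, highest in cluster 6.

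The other 5 clusters, 296 nuclei, held Pappa2 in 0 to 7.14% and Nts in 0 to 3.94% of nuclei. Cluster 1 (127 nuclei, 31.4% of the group) was led by Adarb2, at 2153 CPM against 283 in the other clusters and detected in 90.6%, with Sulf1, Zbtb7c and Nova1. Cluster 2 (77 nuclei) was led by Pdzrn3, Hgf, Frem1, Rorb and Npsr1, and Neurod6 was in 37.7% and Rspo2, a secreted enhancer of Wnt signalling, in 27.3% of its nuclei. Pappa2 was in 0 of these 77, which allows up to 3.90%. Cluster 3 (51 nuclei) was led by Arhgap6, Thsd7a, Palmd and Otof; Dlx6os1, a transcript of GABA neurons, was in 29.4% of it and Slc32a1, the vesicular GABA transporter, in 9.80%. Cluster 8 had 14 nuclei, led by Antxr2, Deptor and Ptprt.

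Cluster 7 (27 nuclei, 6.68%) was led by Slc1a3 of astrocytes, Pdgfra of oligodendrocyte precursors, Mertk and Apoe. Its summed astrocyte markers were at 1270 CPM and its precursor markers at 778, its median depth was 3703 UMIs, and Snap25, a synaptic vesicle fusion protein, was in 77.8% of it. The limits of the rule on Mobp and Gja1 did not remove these nuclei. The label of the group therefore fitted the data in part: 26.7% of the nuclei formed clusters with Pappa2 and Nxph1, the rest were varied, and no cell type name is given to any cluster.

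**Figure D2:**
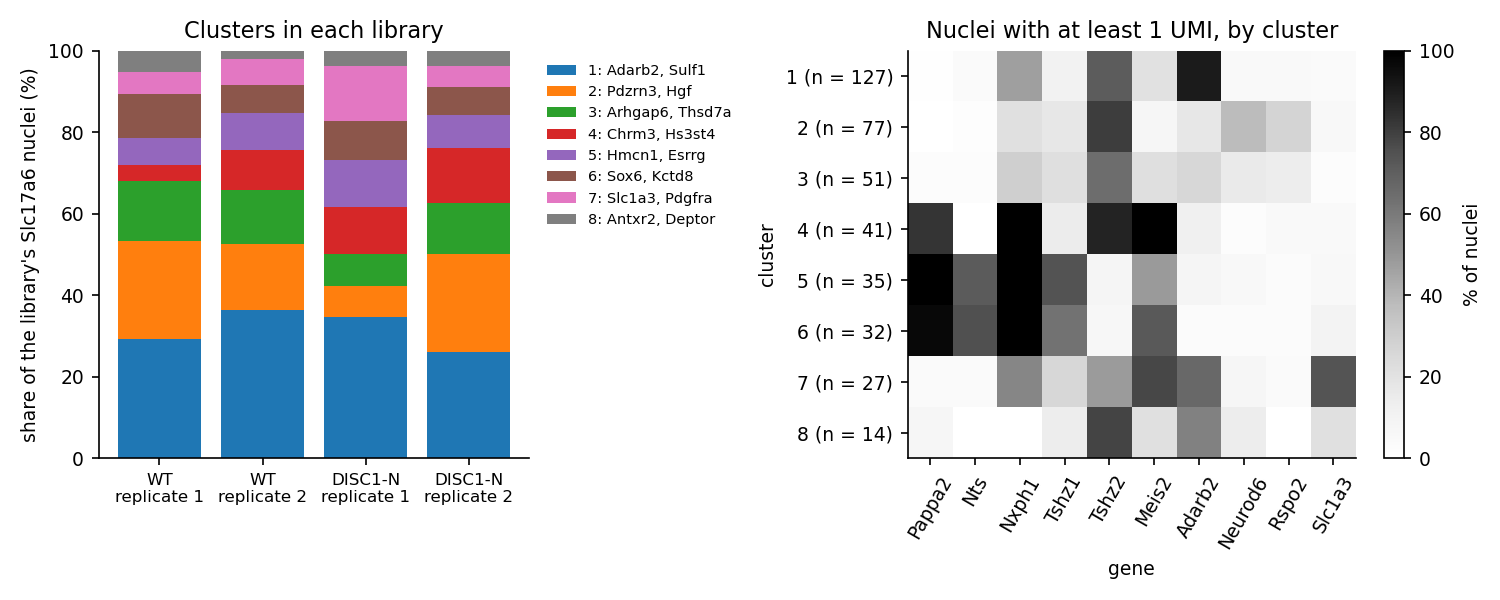
Left, the share of each library's Slc17a6 nuclei (y axis, percent) in the 8 clusters, named by 2 leading genes; right, the share of each cluster's nuclei with at least 1 UMI of 10 genes (grey scale, percent). Pappa2 is dark in clusters 4, 5 and 6 (82.9%, 100% and 96.9%), Nts in clusters 5 and 6 only (71.4% and 75.0%), Adarb2 in cluster 1 (90.6%), and every cluster is found in every library.

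To ask which other genes differ between nuclei with Slc17a6 and nuclei with Slc17a7, UMIs were summed per library and compared within libraries with edgeR's quasi-likelihood test. Of 15052 genes tested, 1929 (12.8%) passed a Benjamini-Hochberg adjusted p of 0.05: 884 (5.87%) were higher and 1045 (6.94%) lower in Slc17a6 nuclei. The nuclei were set apart by their transporters, so genes that go with either transporter differ in part by construction. The Slc17a7 nuclei may also hold UMIs of Gad1, Gad2, Foxp2, Mobp and Gja1, which the Slc17a6 nuclei may not. With the Slc17a7 nuclei held to the same limits, 2267 of 14466 genes passed (15.7%), 1063 higher (7.35%) and 1204 lower (8.32%), and 1817 of the 1929 genes were among them.

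The 12 largest rises were led by Hmcn1, which stood at 129, 127, 185 and 101 CPM in Slc17a6 nuclei and 6.69, 2.37, 5.85 and 3.69 in Slc17a7 nuclei. The difference was 4.83 ± 0.17 on the log2 scale (SE; adjusted p = 3.66e-25, edgeR). Cdh23 stood at 92.2, 59.8, 120 and 65.5 against 4.40, 3.78, 5.26 and 2.83, a log2 difference of 4.28 ± 0.19. For both genes every Slc17a6 library lay more than 10 times above every Slc17a7 library, a gap far wider than the spread between libraries.

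Meis1 stood at 141, 198, 212 and 251 CPM against 19.4, 13, 20.9 and 12.1, a log2 difference of 3.62 ± 0.14. Prlr stood at 68.7, 64.3, 51.7 and 62.3 against 5.69, 11.5, 7.86 and 4.41 (3.06 ± 0.21). Unc13c stood at 263, 323, 359 and 320 against 61.0, 41.6, 51.1 and 47.1 (2.61 ± 0.10). The groups did not overlap for any of these genes. Alk stood at 226, 267, 370 and 328 against 60.3, 46.2, 54.4 and 36.0 (2.56 ± 0.11), with the DISC1-N libraries highest among Slc17a6 nuclei. Tacr1, the substance P receptor, stood at 92.2, 75.3, 40.8 and 92.9 against 11.4, 13.6, 11.0 and 11.4 (2.63 ± 0.17), with DISC1-N replicate 1 the lowest of the Slc17a6 libraries. The other 5 were Lypd6b, a modulator of nicotinic receptors (3.04), Tcerg1l (3.01), the lipid phosphatase gene Plpp4 (2.84), Kctd8 (2.72) and Klhl1, an actin-binding protein (2.59).

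The falls were smaller. Rspo2 stood at 23.5, 28.8, 13.6 and 26.4 CPM in Slc17a6 nuclei and 101, 153, 108 and 167 in Slc17a7 nuclei, a log2 difference of -2.57 ± 0.14 (adjusted p = 1.83e-18, edgeR). The classical cadherin Cdh9 stood at 249, 131, 133 and 205 against 719, 738, 740 and 823 (-2.16 ± 0.10). Etv1, an ETS-family transcription factor, stood at 110, 117, 57.1 and 144 against 277, 457, 314 and 416 (-1.81 ± 0.11). Cnr1, the CB1 cannabinoid receptor, stood at 53.0, 35.5, 32.6 and 42.2 against 130, 118, 120 and 127 (-1.67 ± 0.13). In all 4 genes the highest Slc17a6 library stayed below the lowest Slc17a7 library.

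The other falls were Itgbl1 (log2 difference -2.34), Pbld1 (-2.04), the long noncoding RNA Sox2ot (-1.91), the guidance cue Sema3e (-1.87), Mei1 (-1.78), the BMP antagonist Chrd (-1.67), Mthfd1l, a mitochondrial enzyme of folate metabolism (-1.66), and Csgalnact1, which starts chondroitin sulfate chains (-1.61). Sox2ot, whose gene model overlaps Sox2 on the same strand, rested on the reference: with the Slc17a7 nuclei under the same limits its difference was -0.37 and did not pass, and against nuclei with both transporters it was 0.66. The other 23 of these 24 genes passed in all 16 alternative settings. Meis1, Kctd8, Unc13c and Alk also overlap gene models of their own strand, whose reads the deposited counts may share.

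**Figure D3:**
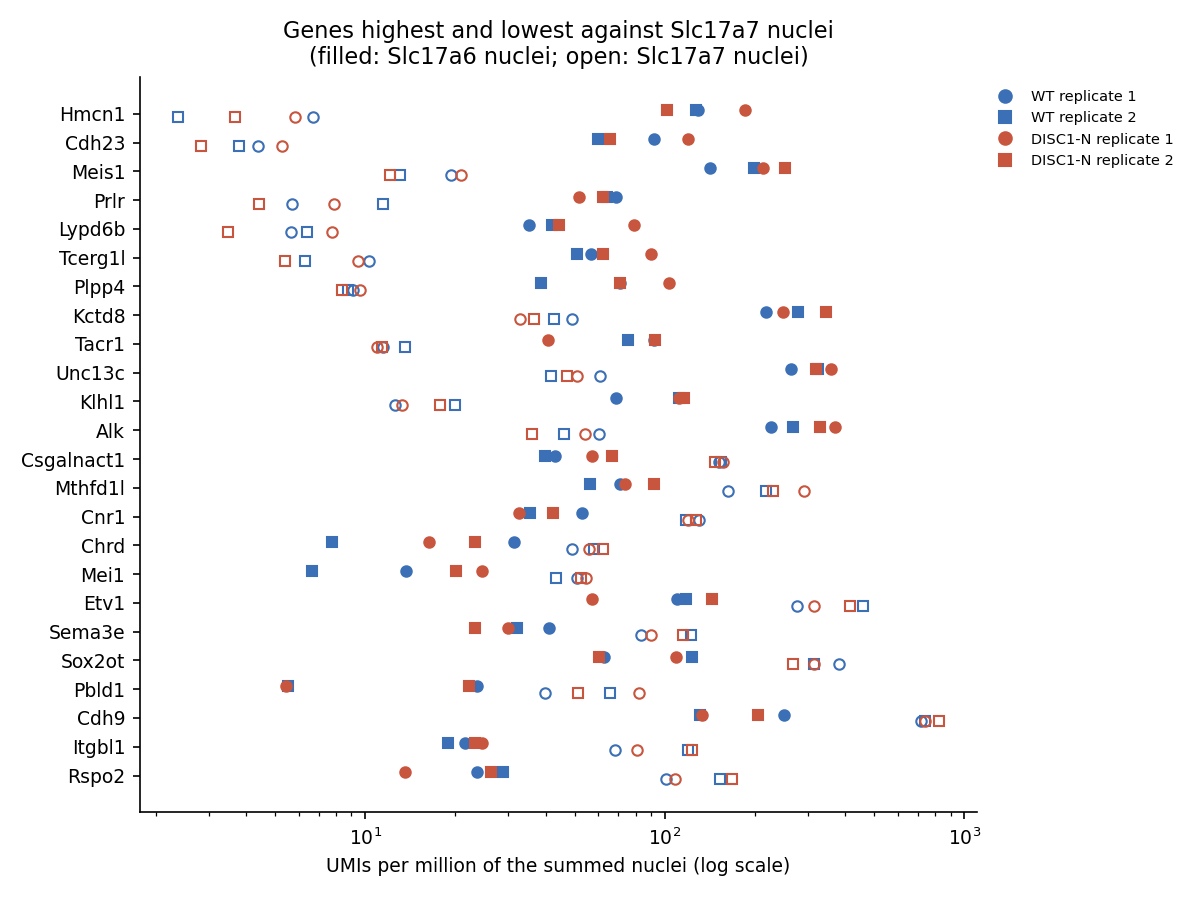
CPM of the summed nuclei (x axis, log scale) for the 12 genes highest and the 12 lowest in Slc17a6 nuclei, with filled symbols for Slc17a6 nuclei and open symbols for Slc17a7 nuclei, 1 for each library. Filled and open symbols do not overlap for any of the 24 genes, and the gap is widest for Hmcn1 (101 to 185 against 2.37 to 6.69).

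All of the 12 higher genes except Prlr stood higher, in each library, in the nuclei with Pappa2 than in those without. Hmcn1 averaged 386 CPM over the 4 libraries in Slc17a6 nuclei with Pappa2 and 18.2 in those without. Cdh23 averaged 254 and 3.21, the latter from WT replicate 1 alone (12.8), with 0 in every other library, while Slc17a7 nuclei were at 2.83 to 5.26. Meis1 averaged 560 and 31.2, Tacr1 227 and 11.2, Lypd6b 141 and 4.65, and Kctd8 725 and 62.2. Alk averaged 727 and 88.3, Tcerg1l 151 and 21.6, Plpp4 163 and 23.6, Klhl1 215 and 45.8, and Unc13c 639 and 168. Prlr averaged 129 and 35.6, and in DISC1-N replicate 1 it was lower with Pappa2 (42.6) than without (59.0). Its mean without Pappa2 was above the 7.36 of Slc17a7 nuclei. Among the falls, Cdh9 averaged 180 in either subset, while Etv1 averaged 34.3 with Pappa2 and 142 without, Csgalnact1 9.13 and 75.1, Rspo2 4.76 and 30.8, and Mei1 2.09 and 24.8. Because Pappa2 chose these subsets after their values were seen, no test is given.

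**Figure D4:**
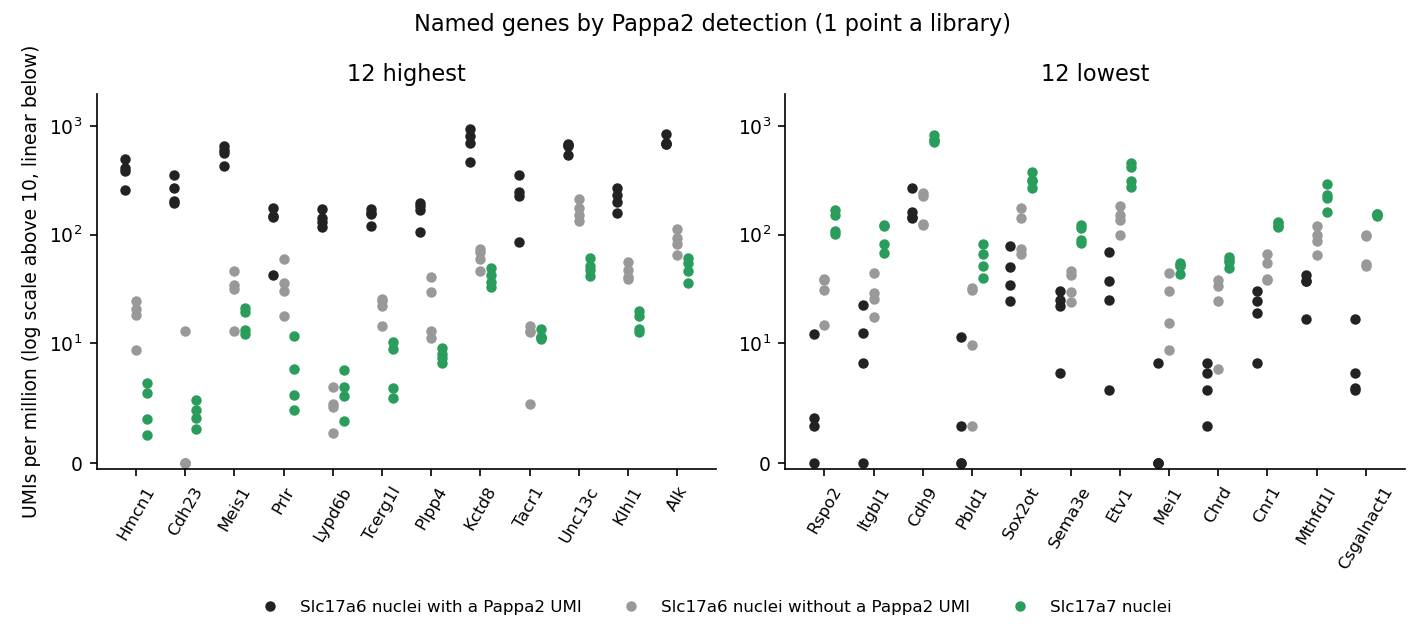
CPM (y axis, log scale above 10 and linear below) of the 12 highest genes (left) and the 12 lowest (right) in Slc17a6 nuclei with a Pappa2 UMI, in those without one and in Slc17a7 nuclei, with 1 point for each library. Meis1 is at a mean of 560 with Pappa2 and 31.2 without, Prlr at 129 and 35.6 with the order turned in DISC1-N replicate 1, and Cdh9 is at a mean of 180 in both subsets.

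Marker lists of neurons and other cells were read against all genes tested, of which 5.87% were higher and 6.94% lower. Of 6 pan-neuronal genes, 2 passed as higher, Meg3 (0.36) and Rbfox1 (0.26), and 2 as lower, Snap25 (-0.38) and Syt1 (-0.27), with a list median of 0.07 against -0.01 over all genes. Their summed level was 16697 to 17398 CPM in Slc17a6 nuclei and 14184 to 15233 in Slc17a7 nuclei. It was 10718 in the glial-led cluster 7 and 13434 to 23589 in the other 7 clusters.

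Of 11 tested genes of cortex-like excitatory neurons, 5 were lower and none higher, with a median of -0.75. They included Sv2b, a synaptic vesicle protein (-0.85), Camk2a, a calcium-dependent kinase of excitatory synapses (-0.75), Neurod6 (-1.44) and the vesicular zinc transporter Slc30a3 (-0.99). Neurod6 stood at 25.5, 17.7, 19.0 and 29.6 CPM against 59.2, 59.9, 63.2 and 61.0. Camk2a stood at 437, 346, 277 and 347 against 610, 550, 600 and 528, so both genes were reduced and not absent. Nrgn did not pass (0.24, adjusted p = 0.0611, edgeR).

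Of 11 genes listed for the medial amygdala and hypothalamus, 3 had enough UMIs to test and all 3 were higher, where 5.87% of all genes were. The filter on low counts set this count in part, since Lhx9 passed it only through its level in Slc17a6 nuclei. Of the 8 genes without a test, Nhlh2 had 4 UMIs in the 404 nuclei, and Sim1, Otp, Lhx5, Ebf3, Fezf1, Tbx3 and Nkx2-1 had 0. The list summed to 220, 285, 375 and 333 CPM against 267, 179, 229 and 136, with Slc17a6 nuclei the lower in WT replicate 1. Lhx9, a LIM-homeobox factor, stood at 13.7, 15.5, 10.9 and 7.39 CPM against 0.411, 1.11, 0.780 and 0.790 (log2 difference 3.81 ± 0.46), found in 26 of the 404 nuclei. Meis2 was higher by 0.52 ± 0.12, and by 2.17 with the Slc17a7 nuclei under the same limits. Pou3f3 was higher by 1.15 ± 0.35. Meis2 and Pou3f3 lost this difference when nuclei were thinned to 2000 UMIs (-0.028 and -0.0023). Meis2 did not pass without DISC1-N replicate 1 (0.49) or DISC1-N replicate 2 (0.23), nor Pou3f3 without WT replicate 1 (1.06) or DISC1-N replicate 2 (0.89). Of 5 tested thalamic genes, Ntng1 (0.53), Rora (0.44) and Calb2 (1.55) were higher and Tcf7l2, a factor of thalamic relay neurons, was lower (-1.45), at 11.8, 5.54, 2.72 and 9.51 against 24.9, 21.9, 18.2 and 16.4. Calb2 did not pass without WT replicate 2 (1.38) or DISC1-N replicate 2 (1.3).

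Of 5 tested GABA neuron genes, 4 were lower (Erbb4, Dlx6os1, Slc32a1 and Dlx1). Dlx1 had no UMI in any Slc17a6 nucleus and did not pass when any 1 library was left out. The list summed to 468 to 665 CPM in Slc17a6 nuclei, 873 to 1337 in Slc17a7 nuclei and 350 to 593 in Slc17a7 nuclei under the same limits. Under those limits none of the 4 tested genes was lower. Of 5 oligodendrocyte genes, 4 were lower, Mbp, Mog and Mag among them, and under the same limits 0 were lower and 2 higher, St18 among them. Without WT replicate 1, Mog (-0.61) and Mag (-0.92) did not pass, and Mag did not without WT replicate 2 (-0.95).

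No astrocyte gene of 5, precursor gene of 6, microglia gene of 6 or vascular gene of 2 passed in either direction. Astrocyte markers summed to 68.7 to 198 CPM in Slc17a6 nuclei and 100 to 204 in Slc17a7 nuclei. Precursor markers summed to 32.7 to 114 and 44.6 to 80.0, and microglia markers to 58.7 to 133 and 62.4 to 92.0. Other cells' RNA was thus present in both groups, and its part in the other results was not tested.

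Neurotensin is cut from a precursor by prohormone convertases, trimmed by carboxypeptidase E (Cpe) and bound by Ntsr1, Ntsr2 and the sorting receptor Sort1. All 4 processing and sorting genes were lower in Slc17a6 nuclei, of 6 genes tested in this list, against 6.94% of all genes. Pcsk2 stood at 571, 603, 593 and 682 CPM against 947, 1128, 1027 and 1188 (-0.88 ± 0.07). Cpe stood at 316, 232, 299 and 246 against 407, 415, 417 and 425 (-0.70 ± 0.08), Pcsk1 differed by -0.95 ± 0.17 and Sort1 by -0.34 ± 0.10, which did not pass without WT replicate 2 (-0.30). Neither Ntsr1 (-0.37, adjusted p = 0.838, edgeR) nor Ntsr2 (-0.56, adjusted p = 0.216) passed.

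Pappa2 frees insulin-like growth factors from their binding proteins Igfbp3 and Igfbp5. Of 10 tested genes of this pathway, 1 was higher and 1 lower, near the 5.87% and 6.94% of all genes. Igfbp5 was higher, at 31.4, 16.6, 43.5 and 8.45 CPM against 4.87, 4.45, 5.26 and 2.77 (2.29 ± 0.30). The receptor gene Igf1r was lower, at 100, 117, 84.3 and 106 against 147, 156, 132 and 138 (-0.54 ± 0.10). Pappa, the paralog of Pappa2, differed by -0.74 (adjusted p = 0.446, edgeR), Igf1 by -0.08 and Igf2r by 0.25. In the neurexophilin list, 1 of 9 tested genes was higher, Nxph4, at 3.92, 7.75, 10.9 and 14.8 against 0.352, 0.445, 0.390 and 0.263 (4.59 ± 0.55) but found in 20 Slc17a6 nuclei only. Nxph4 passed the filter on low counts only through its level in Slc17a6 nuclei. Its receptor gene Nrxn3 was lower (-0.53 ± 0.06), and Nrxn2 and Nlgn1 differed by 0.20 and -0.05 without passing.

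Of 15 other tested neuropeptide genes, 3 were higher and 4 lower, while 5.87% and 6.94% of all genes were. Scg2, a secretory granule protein, stood at 151, 93.1, 144 and 46.5 CPM against 59.9, 24.0, 41.9 and 14.1 (1.61 ± 0.13). Tac1 was higher by 1.73 ± 0.31, with 15.7, 48.7, 19.0 and 10.6 against 13.6, 5.63, 9.16 and 3.23, and without WT replicate 2 it no longer passed (0.85). Cartpt (2.20) rested on WT replicate 2, where 1 nucleus held 34 UMIs, no UMI was found in either DISC1-N library, and without WT replicate 2 the difference was 0.29. Sst differed by -1.05, Tac2 by -2.44, Npy by -0.60 and Chgb by -0.35. Under the same limits only Chgb of these 4 remained lower, and Sst differed by -0.23. The falls of Npy (-0.39 without DISC1-N replicate 1, -0.54 without WT replicate 2), Chgb (-0.30 without WT replicate 1, -0.24 without DISC1-N replicate 2) and Tac2 (-1.81 without WT replicate 1) did not pass without single libraries.

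Receptors for glutamate divided. Of 17 ionotropic subunits, 6 were higher and 6 lower, with a median of -0.10, against 5.87% and 6.94% of all genes and a median of -0.01. The kainate receptor genes split within the family: Grik1 stood at 245, 332, 288 and 379 CPM against 112, 112, 96.5 and 89.6 (1.56 ± 0.10), and Grik4 at 86.3, 134, 133 and 116 against 34.4, 30.2, 38.0 and 23.8 (1.89 ± 0.13). Grik3 stood at 37.3, 38.8, 19.0 and 45.4 against 85.2, 105, 96.8 and 81.7 (-1.35 ± 0.15). The AMPA receptor gene Gria4 (0.51) was higher, and the NMDA receptor gene Grin2a (-0.72) and Gria3 (-0.59) lower. Grin2d, also counted as higher, lost its call in 10 of 16 alternatives, and the lower Grik5 and Gria2 in 2 and 1. Of 7 metabotropic receptor genes, 1 was higher and 4 were lower, with Grm8 at 447, 472, 247 and 491 against 823, 1218, 842 and 1175 (-1.35 ± 0.08). Among the 4 lower genes, Grm8 kept its call in all 16 alternatives, while Grm5, Grm7 and Grm2 lost theirs in 10, 9 and 6. Glutamate handling gave 2 higher and 3 lower of 11, with the neuronal uptake transporter gene Slc1a6 at 41.2, 31.0, 21.8 and 28.5 against 12.5, 10.6, 13.2 and 11.5 (1.33 ± 0.21).

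Of 14 GABA receptor genes, Gabrg1 was higher (0.45) and Gabra2 (-0.35), Gabbr2 (-0.40) and Gabra4 (-0.46) were lower; Gabrg1 did not pass without WT replicate 2 (0.32). Of 11 calcium channel genes, 3 were higher and 2 lower; Cacna2d2 stood at 45.1, 53.2, 65.3 and 35.9 CPM against 16.3, 9.34, 13 and 8.23 (2.06 ± 0.19), and Cacna1e, the R-type channel, differed by -0.66. Of 24 potassium and HCN channel genes, 4 were higher and 6 lower, beside 5.87% and 6.94% of all genes. Kcnc2, which supports fast firing, stood at 257, 234, 364 and 201 against 153, 125, 137 and 134 (0.82 ± 0.09), and the sodium-activated channel gene Kcnt2 at 204, 150, 84.3 and 233 against 331, 415, 323 and 418 (-1.20 ± 0.11).

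Receptors for peptides, monoamines and cannabinoids showed 7 higher and 6 lower of 25, where 12.8% of all genes passed in either direction. Both tachykinin receptor genes tested were higher, Tacr1 as given above and Tacr3 by 2.88 ± 0.49, though Tacr3 was found in 18 Slc17a6 nuclei. Mc4r, the melanocortin receptor of feeding circuits, was higher by 2.81 ± 0.56 in 15 nuclei, and Drd2, a dopamine receptor gene, by 1.88 ± 0.43 in 21. The opioid receptor genes Oprd1 (-1.31) and Oprk1 (-1.24) were lower beside Cnr1. Of 8 steroid and thyroid receptor genes, 2 were higher, among them the mineralocorticoid receptor gene Nr3c2 (0.63), and Thrb (-0.51) and Esr2 (-1.64) were lower. Single libraries ended some of these calls: Oprk1 was at -0.74 without DISC1-N replicate 2, and Esr2 at -1.60, -1.62 and -1.17 without DISC1-N replicate 1, WT replicate 2 and DISC1-N replicate 2.

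Mitochondrial transcripts were higher in 7 of 13 and lower in none, against 5.87% and 6.94% of all genes, with a median of 0.41. These transcripts are made outside the nucleus. mt-Nd2 stood at 141, 29.9, 84.3 and 18.0 CPM against 90.6, 17.0, 47.1 and 8.30, so the replicate 1 libraries were higher than the replicate 2 libraries in both kinds of nuclei. Disc1 and its partners made a list of 12 genes. In it the phosphodiesterase gene Pde4b (-0.60) and the neuronal exchange factor gene Kalrn (-0.43) were lower, a share near the 12.8% of all genes that passed. Disc1 itself differed by 0.38 (adjusted p = 0.461, edgeR), and Wfs1, an endoplasmic reticulum gene that marks BLA neurons of interest in the study's title, by -0.49 (adjusted p = 0.30).

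The genotype comparison asks whether DISC1-N altered this group. Disc1 stood at 3.92, 14.4, 29.9 and 18.0 CPM in Slc17a6 nuclei, from 2, 11, 11 and 16 nuclei with a UMI. Both DISC1-N libraries were above both WT libraries, with a log2 difference of 1.12 ± 0.59 that did not pass (adjusted p = 1.00, edgeR). In Slc17a7 nuclei Disc1 stood at 11.3, 9.41, 14.0 and 12.7. Whether these UMIs come from the DISC1-N allele cannot be read from the counts, so Disc1 does not check the labels.

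Slc17a6 nuclei were 1.82% and 2.52% of kept nuclei in the WT libraries and 1.64% and 2.36% in the DISC1-N libraries. WT averaged 2.17 ± 0.492% and DISC1-N 2.0 ± 0.510% (SD over 2 libraries each), a difference of -0.172 percentage points (two-sided exact permutation p = 0.667, with 0.333 the smallest that 2 against 2 libraries allow). The difference was -0.185 within replicate 1 and -0.160 within replicate 2, both smaller than the gap between replicates of a genotype. It changed sign when WT replicate 2 (0.176) or DISC1-N replicate 1 (0.188) was left out. Fewer nuclei of this kind and less Slc17a6 RNA per nucleus cannot be told apart in such a share.

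Within the group, 12 shares were compared, each with an exact permutation test whose smallest p is 0.333 and an adjusted p of at least 0.80. The share with Pappa2 was 20.0% and 25.2% in WT and 32.7% and 26.9% in DISC1-N. The share in cluster 4 was 4.00% and 9.79% in WT and 11.5% and 13.4% in DISC1-N. Neither overlapped between genotypes, at p = 0.333 by the exact permutation test. The share in cluster 3 was lower in DISC1-N, at 14.7% and 13.3% against 7.69% and 12.7%, also at p = 0.333 by the exact test. The other 9 shares overlapped.

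No gene passed the genotype test within Slc17a6 nuclei: 0 of 8849 tested (0.0%) passed with edgeR, with 153 at an unadjusted p under 0.05, and 0 passed with DESeq2, with 19. The 3 genes of lowest p were Nwd1, a NACHT-domain gene, with 3.92, 15.5, 40.8 and 64.4 CPM, Zfp850 with 11.8, 5.54, 29.9 and 29.6, and Ebf1, a helix-loop-helix factor, with 47.1, 26.6, 13.6 and 8.45. Their log2 differences were 2.34 ± 0.48, 1.91 ± 0.52 and -1.75 ± 0.49, each with an adjusted p of 1.00 (edgeR). For Ebf1, 19 of the 24 UMIs of WT replicate 1 were in 1 nucleus. For Zfp850, 7 of the 11 UMIs of DISC1-N replicate 1 were. Nwd1 passed when DISC1-N replicate 1 (2.60) or WT replicate 2 (3.83) was left out.

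With the replicate number as a block, 10 of 8849 genes passed (0.113%), 5 higher (0.0565%) and 5 lower (0.0565%) in DISC1-N. Those named by rule were Nwd1 (2.33 ± 0.40), Mertk, a phagocytic receptor gene of glia (1.29 ± 0.31), and Adarb2 (-0.77 ± 0.15), with adjusted p-values of 1.76e-05, 0.0413 and 0.00164 (edgeR). The other 7 were Gm47283, Gm21887, Gm32647, B230216N24Rik, AC149090.1, mt-Atp6 and mt-Co3, gene models and mitochondrial genes named after their values were seen. DESeq2 with the same block called 0. In Nwd1, 25 of the 61 UMIs of DISC1-N replicate 2 came from 1 nucleus. Nwd1 was also higher in DISC1-N in Slc17a7 nuclei, at 40.1 and 42.2 CPM against 29.3 and 35.0 in WT.

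Whether the genotype difference in Slc17a6 nuclei departs from that in Slc17a7 nuclei was tested as an interaction in edgeR, where the log2 value is the first difference minus the second. Of 16263 genes, 19 passed (0.117%), 15 with a value above 0 (0.0922%) and 4 below (0.0246%), and DESeq2 called 0 (130 at an unadjusted p under 0.05). Values for all 19 stand in the closing section, and the genes with broad detection follow here.

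In Slc17a6 nuclei of WT, Adarb2 was at 730 and 988 CPM, above the 443 and 544 of DISC1-N. In Slc17a7 nuclei it stood at 470 and 323 against 376 and 409, which overlapped. The interaction was -0.81 ± 0.15 (adjusted p = 0.000134, edgeR) and passed in 11 of 13 alternatives; without WT replicate 2 it was -0.31. Adarb2 led cluster 1, whose share was 29.3% and 36.4% in WT and 34.6% and 26.1% in DISC1-N.

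Nxph1, the neurexin ligand, stood at 638 and 918 in WT and 1093 and 1039 in DISC1-N Slc17a6 nuclei, and at 212 and 179 against 190 and 131 in Slc17a7 nuclei. The interaction was 0.78 ± 0.14 (adjusted p = 0.000155, edgeR); leaving out WT replicate 1 gave 0.41 and leaving out DISC1-N replicate 2 gave 0.50, and neither passed. Meis2 stood at 184 and 260 in WT and 359 and 312 in DISC1-N Slc17a6 nuclei and at 256 and 172 against 221 and 131 in Slc17a7 nuclei (0.88 ± 0.17, adjusted p = 0.000404). Alk stood at 226 and 267 against 370 and 328, and at 60.3 and 46.2 against 54.4 and 36.0 in Slc17a7 nuclei (0.76 ± 0.17, adjusted p = 0.0116). Neither passed when WT replicate 1 (Meis2 0.41, Alk 0.47) or DISC1-N replicate 2 (Meis2 0.53, Alk 0.49) was left out. In all 3 genes the Slc17a7 means were lower in DISC1-N. Nxph1 and Alk were highest by CPM in clusters 4 to 6, and Meis2 in cluster 4 (100% of nuclei). Meis2 was also in 77.8% of the glial-led cluster 7, against 48.6% of cluster 5 and 71.9% of cluster 6. The share of cluster 4 was higher in both DISC1-N libraries, and that of cluster 7 in DISC1-N replicate 1. Among nuclei with a Pappa2 UMI alone, Nxph1 was at 1921 and 2108 CPM (WT) against 1984 and 2482 (DISC1-N), Alk at 693 and 683 against 688 and 843, and Meis2 at 501 and 570 against 651 and 624. Among those without Pappa2, Nxph1 stood at 244 and 420 against 374 and 302, Alk at 82.1 and 92.8 against 113 and 65.4, and Meis2 at 87.2 and 130 against 123 and 152. Within either subset the genotypes overlapped for Nxph1, Alk and, without Pappa2, Meis2, and no test was made within these subsets.

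In WT replicate 1, 104 of the 356 UMIs of Pcdh15, a protocadherin of hair-cell tip links, were in 1 nucleus. Pcdh15 stood at 698 and 742 CPM in WT Slc17a6 nuclei and 503 and 489 in DISC1-N. In Slc17a7 nuclei it stood at 718 and 906 against 742 and 935 (-0.59 ± 0.14, adjusted p = 0.0417, edgeR). It passed in 5 of 13 alternatives, and not when WT replicate 1 (-0.48) or DISC1-N replicate 2 (-0.42) was left out. Cntnap5c, a contactin-associated protein gene named after its values were seen, stood at 284 and 368 in WT and 492 and 529 in DISC1-N (0.73 ± 0.16, adjusted p = 0.00510) and passed in 10, but not without DISC1-N replicate 1 (0.55) or WT replicate 2 (0.57). Slc1a3 (1.24) and Mertk (1.46), glial genes that led or marked cluster 7, were at -0.68 and -0.14 without that cluster. The cluster's share was higher in DISC1-N in replicate 1 (13.5% against 5.33%) and lower in replicate 2 (5.22% against 6.29%). In WT, Slc1a3 was at 62.8 and 27.7 CPM against 101 and 59.1 in DISC1-N, and Mertk at 35.3 and 23.3 against 89.7 and 53.9, so both were higher in DISC1-N at either replicate number.

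**Figure D5:**
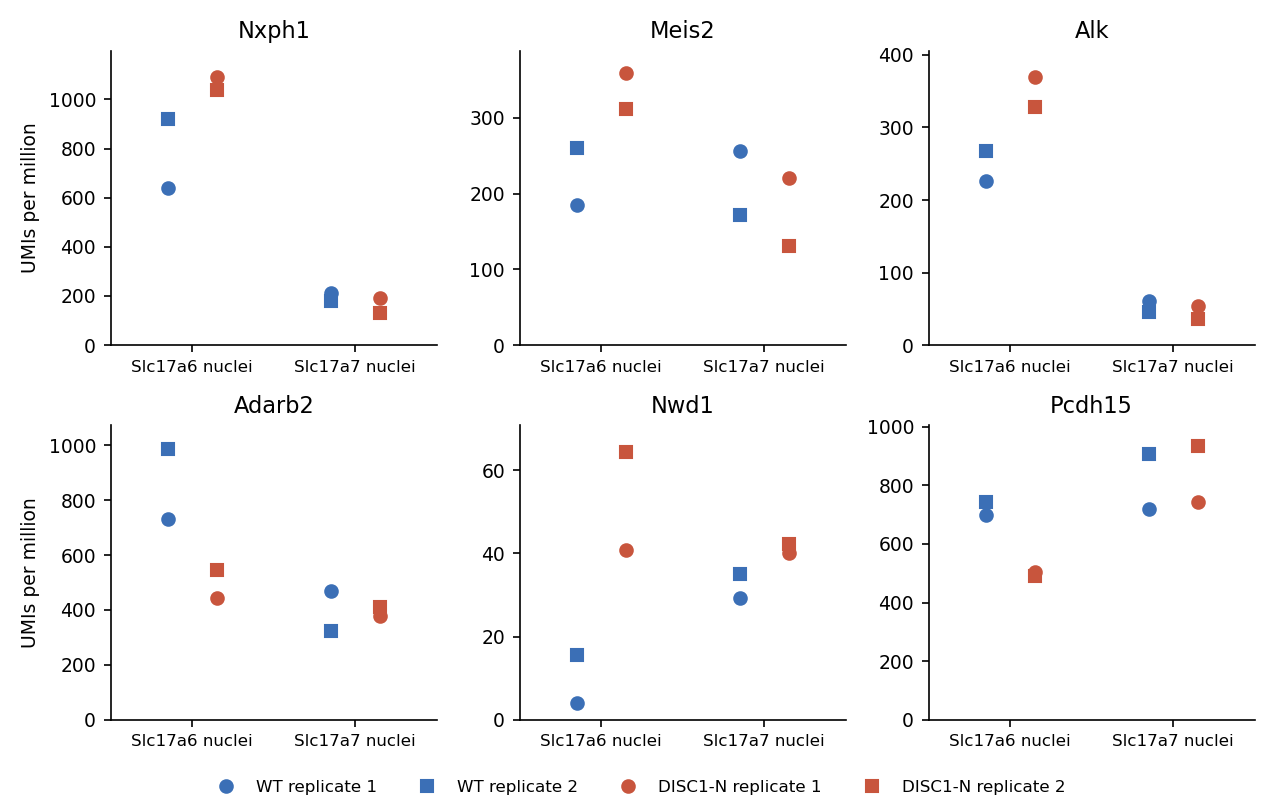
CPM (y axes, starting at 0) of 6 genes whose genotype difference departed between Slc17a6 nuclei and Slc17a7 nuclei, with 1 symbol for each library, blue for WT and red for DISC1-N. Most of these genes were named by a rule that asks for genotypes without overlap in the log2 ratio of Slc17a6 to Slc17a7 nuclei. In Slc17a6 nuclei Adarb2 is at 443 and 544 in DISC1-N against 730 and 988 in WT. In Slc17a7 nuclei Adarb2 overlaps (376 and 409 against 470 and 323). For Pcdh15, 1 nucleus holds 104 of the 356 UMIs of WT replicate 1.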

How the data were processed

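Single-nucleus RNA of the BLA was measured in 2 WT and 2 DISC1-N libraries. Each deposited file holds raw UMI counts, genes by barcodes, with no normalization. The authors produced them with Cell Ranger on mm10: per the file headers, version 7.0.0 was used for replicate 1 of each genotype and 6.0.2 for replicate 2, whereas the submitters' processing notes name 7.0.0 alone. The sources used here do not state how introns were treated or barcodes called.

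Nuclei were chosen by the rule in the text, and UMIs were summed per library and kind of nucleus. The members, gene lists and tests were chosen with earlier results of these data known. Sums of Slc17a6 and Slc17a7 nuclei were compared in edgeR 4.0.16 (R 4.3.3; quasi-likelihood, TMM, filterByExpr, library as a block), genotypes without a block, and their interaction with library as a block; a Benjamini-Hochberg adjusted p under 0.05 was called. Summed depths were 367762 to 946797 UMIs for Slc17a6 nuclei and 13497033 to 17040174 for Slc17a7 nuclei. Genes of the rule and Nts, Pappa2 and Nxph1 were not tested against Slc17a7 nuclei. Doublets were kept; Scrublet scores gave an alternative. Leiden clusters of the 404 nuclei came from leidenalg 0.10.2 at resolution 0.6, run through scanpy 1.11.5. Background classes were nuclei with at least 5 UMIs over Mobp, Mog and Mag (oligodendrocyte), 3 over Gja1, Aqp4 and Slc7a10 (astrocyte), 5 over Pdgfra, Cspg4 and Vcan (precursor), 5 over Cx3cr1, P2ry12 and Csf1r (microglia) or 3 over Gad1 and Gad2. Coordinates are from GENCODE vM21 (32158 of 32285 IDs matched).

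Named genes are the 12 highest and 12 lowest log2 differences among called genes with a mean of at least 50 CPM (UMIs per 1000000) and 1 sign in all libraries. For genotype they are up to 8 each way with at least 20 and no overlap, or the 3 of lowest p. For the interaction, no overlap was asked of the log2 ratio of Slc17a6 to Slc17a7 nuclei in each library. Named in any case are Disc1, Wfs1, the genes of the neurotensin, pappalysin and neurexophilin lists and the 4 of lowest p in each other list described. Gene models, mitochondrial, ribosomal and sex-linked genes were left out, and single values of some list genes are not reported here. Other genes in the text were named after their values were seen. Tests were tried on simulated data first. Alternatives were DESeq2 1.42.0, its size factors, no filter, other UMI limits, doublets removed, a marker screen, thinning, other references, a replicate block and leaving out each library; holding Slc17a7 nuclei to the same limits, leaving out cluster 7 and DESeq2 with the block were added after seeing the data.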

Additional observations from a re-analysis of the deposited data

Results flagged for a closer look

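In 19 genes the genotype difference in Slc17a6 nuclei departed from that in Slc17a7 nuclei by the edgeR interaction test; values are the first log2 difference minus the second, and counts of alternatives are out of 13. Library values are CPM in Slc17a6 nuclei, WT replicate 1, WT replicate 2, DISC1-N replicate 1 and DISC1-N replicate 2.

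Genes with broad detection were Adarb2 (-0.81, passed in 11), Nxph1 (0.78, in 10), Meis2 (0.88, in 10), Cntnap5c (0.73, in 10), Alk (0.76, in 9), Pcdh15 (-0.59, in 5) and Nell1 (-0.69, in 3). Nell1, a secreted growth factor gene, stood at 314, 376, 122 and 305, so DISC1-N replicate 1 was low and DISC1-N replicate 2 close to WT. Pcdh15 had 104 of its 356 UMIs of WT replicate 1 in 1 nucleus. The shares of cluster 4 and the values of Nxph1, Meis2 and Alk with and without Pappa2 are given by library in the results; the part of these shares in the interaction was not tested.

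Some values rested on 1 nucleus. Ptgds, prostaglandin D synthase (1.18, passed in 9), stood at 114, 63.1, 315 and 63.4, and 71 of its 116 UMIs in DISC1-N replicate 1 were in 1 nucleus. Cfap299 (2.62, in 10) had 40 of its 46 UMIs there in 1 nucleus, and Slc44a4, a choline transporter-like gene, had 28 of 28. Slc44a4 had no UMI in either WT library, so its fitted value of 10.93 (in 10) is no bound on a fold. Slc6a16 (3.86, in 9) had 12 of its 34 UMIs of DISC1-N replicate 2 in 1 nucleus, and Nwd1 (2.01, in 9) had 25 of 61.

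Genes of glia or led by the glial cluster were Mertk (1.46, in 6) and Slc1a3 (1.24, in 5), which fell to -0.14 and -0.68 without cluster 7, Slc4a4 (0.88, in 0) and Pla2g7 (1.92, in 2). Gene models were Gm32647 (0.88, in 6), Gm6145 (2.48, in 5) and 4931415C17Rik (-2.84, in 7). Gm6145 had 3 to 23 UMIs in a library. In DISC1-N replicate 1, 1 nucleus held 8 of the 11 UMIs of Gm6145, and 1 held 20 of the 37 of Slc1a3. For 4931415C17Rik, 1 nucleus held 7 of 15 UMIs in WT replicate 1, and 1 held 8 of 12 in WT replicate 2.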

How the results depend on the processing

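Against 1929 genes (884 higher, 1045 lower), DESeq2 called 1253 (634 and 619), thinning to 2000 UMIs 875 (380 and 495), nuclei with both transporters as the reference 1132 (521 and 611) and at least 2 Slc17a6 UMIs 1455 (573 and 882). Without a filter 2052 passed (727 and 1325), 35.4% of them higher against 45.8%. Leaving out 1 library gave 1390 to 1762 (614 to 829 higher, 776 to 933 lower). For named and list genes, 1695 alternative values kept direction and call, 205 lost the call and 17 reversed. With both transporters as the reference, Sox2ot became 0.66, Ntng1 -0.050, Dlx6os1 1.71, Erbb4 0.0038, Mbp 0.18, Sst 0.34, Npy 0.72, Kcnh5 -0.57 and Kcnh7 -0.13. Under the same limits, Dlx6os1 became 0.065, Erbb4 0.14, Mog 0.10 and Mag 0.19. Thinned, Meis2 became -0.028, Pou3f3 -0.0023 and Kcnh5 -0.0168; with at least 2 Slc17a6 UMIs, Kcnh5 became -0.021. The causes were not tested. The difference in share lay between -0.533 and 0.188 points when 1 library was left out (0.188 without DISC1-N replicate 1, 0.176 without WT replicate 2).

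Genotype calls went from 0 to 5 without a filter and to 3 to 15 without 1 library (3 without WT replicate 1, 15 without DISC1-N replicate 1), where the lone library is assumed to vary like the other genotype's. The replicate block gave 10 genes with edgeR and 0 with DESeq2. Deviations from the group mean correlated between same-numbered libraries (0.359 in Slc17a6 nuclei, 0.682 in Slc17a7 nuclei). With 2 libraries per genotype, the 2 pairs give the same value by construction, and the other pairing would turn its sign. The labels do not say what the number marks. In the share, the block left the difference at -0.172. The interaction gave 0 with DESeq2, 9 to 17 without 1 library (9 without WT replicate 1 or DISC1-N replicate 1) and 12 without cluster 7, where Mertk (-0.14) and Slc1a3 (-0.68) reversed. The libraries of Slc17a6 nuclei held 367762 to 946797 UMIs, so genes at a few CPM rest on a few molecules.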
